A study of Mus musculus with 16 samples.

Results

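Interferon-stimulated genes (ISGs) were followed as 43 of the 39179 genes in the count data, across PEP+/+ and PEP-/- bone marrow derived mast cells (BMMCs). The members were listed by gene symbol and found by the mouse Ensembl identifier that carries it on GRCm38. All 43 were found, 35 of them passed the filter on low counts and 8 did not. The list was chosen by the measured genotype difference, since Ifi27l2a had been seen higher in PEP-/- BMMCs, so that difference is a description here and no p-value is given for it. The 2 genotypes were the wild type and the mutant of Ptpn22, the gene of the PEST-domain-enriched tyrosine phosphatase (PEP), and how the mutant allele was made is not given in the sources used here. All samples were BMMCs of male C57BL/6 mice 8 to 10 weeks old, kept 4 weeks in culture with stem cell factor and IL3, and all were sensitized with IgE for 3 h, at 0.05 µg/ml by the sample labels, while the study's methods state a higher dose. Cells received IgE alone (IgE), the antigen dinitrophenol at 200 ng/ml for 1 h as well (IgE DNP), dexamethasone at 100 nM for 8 h as well (IgE DEX), or both (IgE DNP DEX). Each of the 8 conditions had 2 replicates, 16 samples in all. The replicates are described as biological, but whether they came from separate mice or cultures is not stated, so the p-values measure only the spread between these samples. In RNA of a whole culture, fewer expressing cells and less RNA per cell cannot be told apart.

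Type I interferons bind a receptor made of the subunits IFNAR1 and IFNAR2. The receptor's kinases activate transcription factors, STAT2 among them, that join IRF9 and switch on ISGs through an interferon-stimulated response element (ISRE) in their promoters, while interferon gamma acts through a gamma-activated site (GAS). The products include RNA sensors, antiviral effectors and regulators such as USP18, which dampens signalling at the receptor. Mast cells are resident sentinel cells of skin and mucosa that carry such sensors, and glucocorticoids are used to damp their activation.

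RefSeq promoter windows of GRCm38.p6, from 250 bases before to 50 after the start of transcription, were found for 32 of the 43 members. Dhx58, Ifi27, Ifi27l2a, Mx1, Mx2, Oas2, Parp14, Parp9, Rtp4, Usp18 and Zbp1 had no entry. The core of the ISRE, searched as GAAA, 2 bases of any kind and GAAA on either strand, was in the windows of 14 of the 32 members and of 3.99% of all 27025 genes with windows. A GAS, searched as TTC, 3 bases of any kind and GAA, was in 10 of the 32 and in 9.55% of all genes, and a glucocorticoid response element, searched as GNACA, 3 bases of any kind and TGTNC with N for any base, was in 0 of the 32 and in 0.54%. The stretches below belong to members whose values the results turn on, and to Ifit1, a classical ISRE gene that was hardly detected. Each is written 5′ to 3′ in the direction of its gene, with the match in capitals (an ISRE match in all but Irf1, a GAS match there), and position 1 is the start of transcription. In Isg15 the capitals mark 1 of 3 overlapping matches, and in Ifit1 1 of 2 matches, the other of which starts at -104 and is left in lower case.
Isg15 (chr4:156200851-156200920, minus strand, match at -72 to -63): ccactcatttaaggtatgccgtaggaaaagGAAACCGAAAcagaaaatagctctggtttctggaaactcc
Ifitm2 (chr7:140955968-140956037, minus strand, match at -46 to -37): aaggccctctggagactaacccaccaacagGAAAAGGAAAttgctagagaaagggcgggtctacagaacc
Oas3 (chr5:120777695-120777764, minus strand, match at -75 to -66): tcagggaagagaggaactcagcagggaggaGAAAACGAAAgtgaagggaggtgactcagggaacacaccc
Rsad2 (chr12:26456533-26456602, minus strand, match at -120 to -111): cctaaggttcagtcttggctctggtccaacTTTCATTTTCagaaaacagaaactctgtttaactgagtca
Ifit1 (chr19:34640774-34640843, plus strand, match at -85 to -76): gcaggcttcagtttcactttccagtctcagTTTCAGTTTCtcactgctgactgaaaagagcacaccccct
Irf1 (chr11:53769894-53769962, plus strand, match at -90 to -82): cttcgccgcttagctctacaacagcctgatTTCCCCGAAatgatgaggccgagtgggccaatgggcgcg
A match is a description of letters and not a binding site, and members with a match moved in both directions in the comparisons that follow.

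Between 8612531 and 22143526 reads per sample were counted on genes, and values are given as CPM, the read count relative to the library's total after TMM scaling. The samples followed their labels. Ptpn22 had 11.3 to 174.8 CPM in the PEP+/+ samples against 0 to 3.03 CPM in the PEP-/- samples. The glucocorticoid target Tsc22d3 rose by 3.13 ± 0.18 (log2, SE) with DEX in IgE cells (edgeR adjusted p = 1.64e-06), and the antigen target Tnf rose by 7.99 ± 0.27 with DNP (edgeR adjusted p = 4.66e-08). All 11 mast cell markers were detected in all samples and together took 63205 to 103765 CPM. Markers of other cells that make or answer interferon were low: the 4 of plasmacytoid dendritic cells summed to at most 0.338 CPM with Klk1 at 0 in all samples, and the 9 of monocytes or macrophages to between 5.85 and 18.1 CPM with C1qa at 0. No gene for an interferon passed the filter. Of 16 interferon genes listed 15 were matched, 12 had no read in any sample and the other 3 had at most 1 read in any sample, where a count of 0 allows up to 0.135 CPM in the deepest and 0.348 CPM in the shallowest library. Reads that aligned to several places were not counted on any gene, so this limit does not cover reads shared by close copies such as the interferon alpha genes.

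The members spanned a wide range of expression. Relative to exon length, the mean over all 16 samples was highest for Ifitm1 at 2770 CPM per kilobase and Ifitm2 at 914 CPM per kilobase, which encode membrane proteins that block virus entry. Ifitm3 from the same cluster on chromosome 7 followed at 103 CPM per kilobase, then Lgals3bp, a secreted glycoprotein, at 52.9 and Bst2, the tetherin that holds back budding virus, at 46.8. Ifi27 at 36.7 and Ifi27l2a at 34.1, which lie next to each other on chromosome 12 and belong to the ISG12 family of small mitochondrial and nuclear envelope proteins, had overlapping ranges. In the order of all 43 members, Ifitm2 and Ifitm3 were the only neighbours whose ranges over the 16 samples did not overlap. The receptor subunits Ifnar1 and Ifnar2 had 8.73 and 6.87 CPM per kilobase, and the factors Stat2, Irf9 and Irf1 between 9.29 and 6.07, against 0.573 for Irf7, the factor that amplifies interferon production.

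The classical virus-induced members were at the bottom. Mx1, Mx2, Oas2, Ifit1, Ifit3, Ifi44, Rtp4 and Zbp1 did not pass the filter, and no library held more than 12 reads of any of them. Mx1, a GTPase that traps viral ribonucleoproteins, had 1 to 12 reads per library, and Oas2, an oligoadenylate synthetase, had 0 or 1 read. Ifi44, of which 11 of 16 libraries held no read, and Ifit3, of which 10 held none, were at the same edge of detection. Among the Ifit genes, whose products bind foreign RNA, Ifit2 was tested, with 1 to 75 reads per library. In raw CPM, 9 members had a mean under 1, 11 between 1 and 10, 19 between 10 and 100, and 4 (Ifitm1, Ifitm2, Samd9l and Lgals3bp) above 100.

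**Figure D1:**
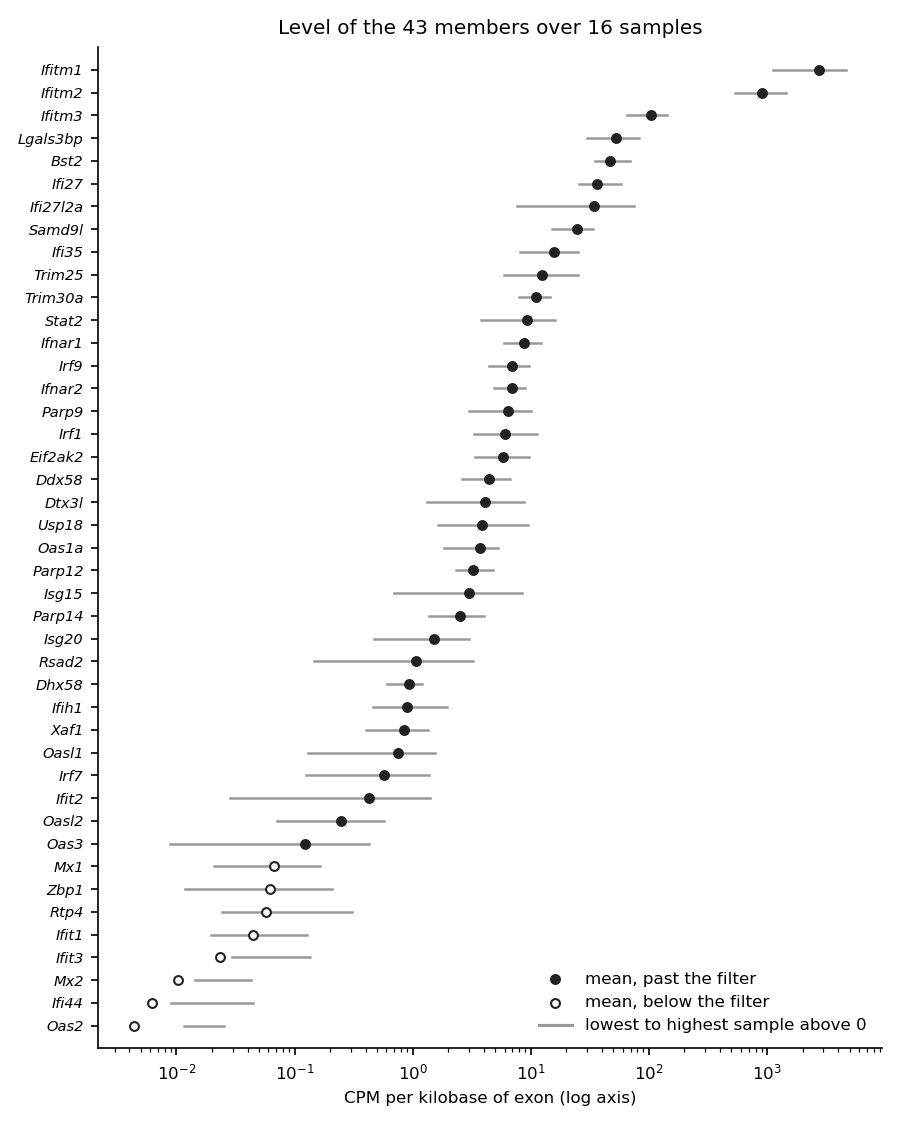
Level of each of the 43 members as CPM per kilobase of exon on a log axis, with the mean over 16 samples as a point (open where the gene did not pass the filter on low counts) and a line from the lowest to the highest sample above 0. The means run from 2770 for Ifitm1 down to 0.00435 for Oas2, and the 8 open points are the 8 lowest.

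The first comparison asked how the members responded to antigen within 1 h, as IgE DNP against IgE over both genotypes (4 samples against 4). The members did not move together. The negative regulator Usp18, the factor Irf1 and the PARP and ligase genes Parp14 and Dtx3l fell, while the receptor subunit Ifnar1 and the RNA sensor Ifih1 rose. With edgeR's quasi-likelihood test at a Benjamini-Hochberg adjusted p under 0.05, 2 of 35 members were higher (5.71%, against 9.07% of all 13305 genes tested) and 4 were lower (11.4%, against 7.58%). The median log2 fold change was 0.01 over the members and 0.00 over all genes.

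Usp18 encodes the protease that removes ISG15 from proteins and blocks signalling at IFNAR2. It had 21.1 and 22.1 CPM in PEP+/+ IgE, 6.72 and 7.99 in PEP+/+ IgE DNP, 18.4 and 26.5 in PEP-/- IgE, and 5.66 and 5.01 in PEP-/- IgE DNP. All 4 activated samples lay below all 4 sensitized ones, and Usp18 fell by 1.81 ± 0.18 on the log2 scale (SE, edgeR adjusted p = 3.93e-05), to 0.284 of its sensitized level. Irf1, a factor that interferon gamma and inflammatory signals induce, lies at chr11:53770014-53778374 and had 38.3 and 30.4 CPM in PEP+/+ IgE, 13.1 and 13.9 in PEP+/+ IgE DNP, 41.3 and 44.9 in PEP-/- IgE, and 16.2 and 14.2 in PEP-/- IgE DNP. Here too the groups did not overlap, and Irf1 fell by 1.42 ± 0.13 (edgeR adjusted p = 2.91e-05).

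Among the PARP and ubiquitin ligase genes, Parp14 and Dtx3l lie close together on chromosome 16. Parp14, a mono-ADP-ribosyltransferase, had 23.9 to 37.1 CPM in the 4 IgE samples and 13.5 to 17.8 CPM in the 4 IgE DNP samples, and fell by 0.82 ± 0.16 (log2, edgeR adjusted p = 0.00403). Dtx3l, the ubiquitin ligase partner of PARP9, had 21.7 to 42.98 CPM against 7.54 to 17.1 CPM and fell by 1.25 ± 0.36 (edgeR adjusted p = 0.0351). In both genes the groups did not overlap. How many of all genes were apart in this way was not counted, in this or the later treatment comparisons, so nothing is read from it. Dtx3l and Parp9 overlap on opposite strands, and the strand setting of the counting was not given. Reads in their overlap may therefore have been left out as ambiguous or counted on the wrong gene.

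Ifnar1 had 46.4 and 37.9 CPM in PEP+/+ IgE, 59.5 and 58.6 in PEP+/+ IgE DNP, 51.4 and 43.8 in PEP-/- IgE, and 72.7 and 68.1 in PEP-/- IgE DNP. It rose in each of the 4 pairs of same-numbered replicates, by 0.53 ± 0.14 on the log2 scale (edgeR adjusted p = 0.0240). Ifih1, which encodes the double-stranded RNA sensor MDA5, rose by 1.05 ± 0.29 (edgeR adjusted p = 0.0299), from 4.08 to 8.74 CPM in IgE to 7.54 to 15.9 CPM in IgE DNP, ranges that overlap. Ifi27l2a differed by 0.09 ± 0.30 (log2, edgeR adjusted p = 0.909), with 8.74 and 11.02 against 7.09 and 11.9 CPM in PEP+/+ and 21.6 and 32.1 against 28.9 and 34.8 CPM in PEP-/- BMMCs.

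Same-numbered replicates deviated together in every pair of conditions, so the fit with the replicate set as a block is given beside these counts. It called 8 members higher (22.9%, against 18.6% of all genes) and 10 lower (28.6%, against 19.3%). The members it added as higher were Ifi27, Ifitm2, Ifitm3, Isg15, Isg20 and Rsad2, and those it added as lower were Ifit2, Oasl1, Oasl2, Stat2, Parp9 and Ifnar2. Rsad2, the antiviral radical-SAM enzyme viperin, differed by 1.13 ± 0.43 without the block (edgeR adjusted p = 0.104) and by 1.07 ± 0.20 with it (edgeR adjusted p = 5.88e-04). Single genes from the marker lists of other cells were called with antigen as well. The 3 basophil markers summed to 228.4 to 622.6 CPM in the samples without antigen and 431.2 to 882.4 CPM in those with it, DEX samples included, and the 9 monocyte or macrophage markers to 5.85 to 13.1 CPM and 7.37 to 18.1 CPM. Of single markers Cd200r3 rose by 0.50 ± 0.12 (log2, edgeR adjusted p = 0.0168), Cd14 by 2.24 ± 0.36 (edgeR adjusted p = 0.00143) and Ncr1, of natural killer cells, by 1.31 ± 0.37 (edgeR adjusted p = 0.0331). Cd200r3, with 198.4 to 837 CPM over all samples, was the only 1 called of 3 basophil markers. Mcpt8 had 8.03 to 62.8 CPM and Prss34 10.2 to 59.4 CPM, so the basophil sum was mostly Cd200r3. Cd14 was 1 of 4 tested monocyte or macrophage markers. Ncr1 was the only 1 tested of 4 T or NK cell markers, of which Cd3e and Cd3g had no read. The part of these markers in the members' differences was not tested. The calls of 3 members rested on single libraries. Ifnar1 was not called without any 1 of the 4 IgE DNP libraries or without replicate 2 of IgE in either genotype (adjusted p 0.062 to 0.108), Ifih1 not without either PEP+/+ IgE library, PEP-/- IgE replicate 2 or replicate 1 of IgE DNP in either genotype (0.0624 to 0.118), and Dtx3l not without replicate 1 of IgE in either genotype, either PEP-/- IgE DNP library or PEP+/+ IgE DNP replicate 2 (0.0598 to 0.124).

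**Figure D2:**
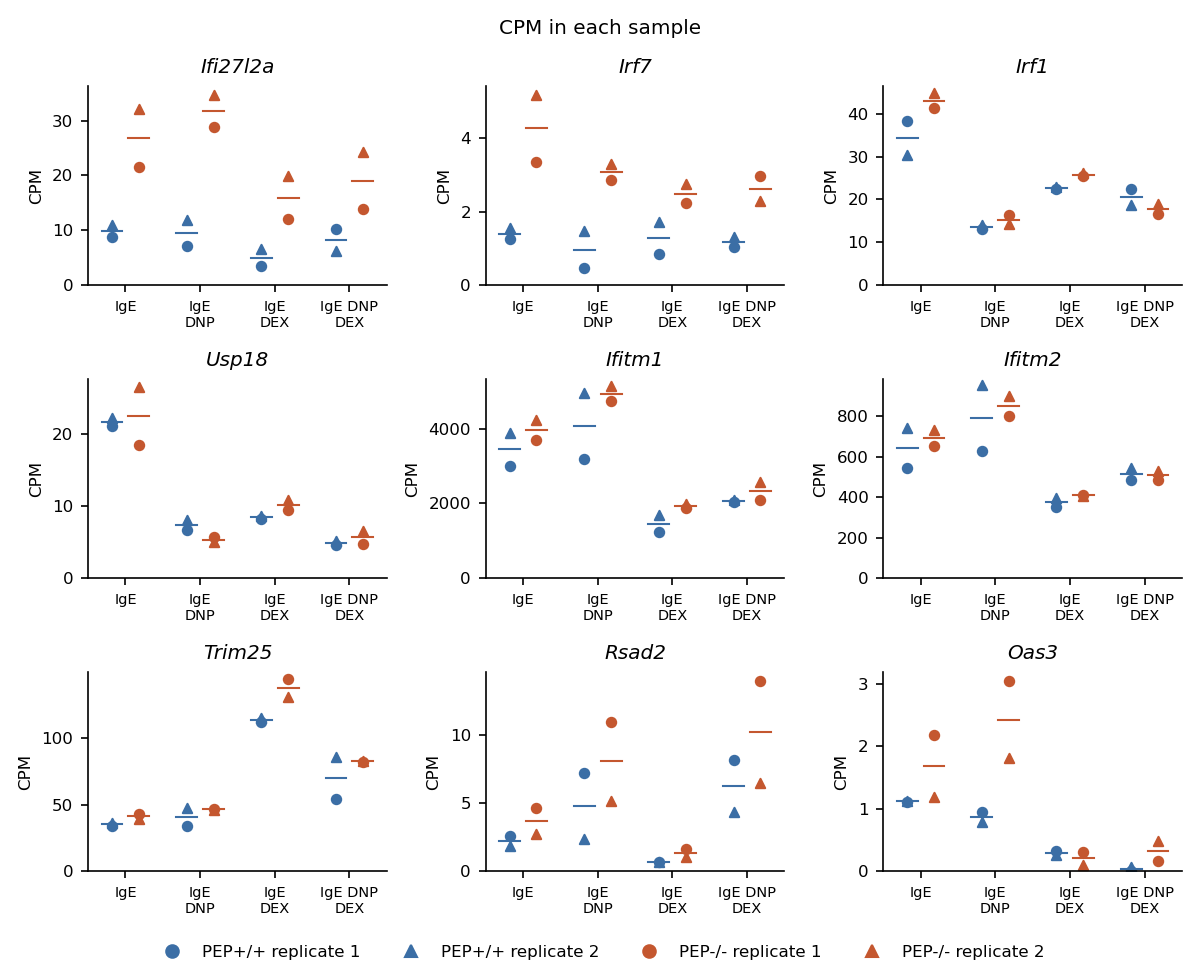
CPM of 9 members in each of the 16 samples, by treatment (x axis) and genotype (colour), with replicate 1 as circles, replicate 2 as triangles and a short line at the mean of each condition. In Usp18 the 4 IgE samples lie between 18.4 and 26.5 CPM and the 4 IgE DNP samples between 5.01 and 7.99 CPM.

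The antigen response of cells under DEX was compared in the same way (IgE DNP DEX against IgE DEX, 4 samples against 4). The largest change was that of Rsad2, which rose, while Usp18 and Parp14 fell as they did without DEX and Trim25 fell as well. Of 35 members 2 were higher (5.71%, against 7.19% of all genes) and 3 were lower (8.57%, against 5.42%). The median log2 fold change was -0.05 over the members and -0.02 over all genes.

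Rsad2 had 0.652 and 0.631 CPM in PEP+/+ IgE DEX, 8.20 and 4.37 in PEP+/+ IgE DNP DEX, 1.66 and 1.02 in PEP-/- IgE DEX, and 14 and 6.47 in PEP-/- IgE DNP DEX. All 4 activated samples lay above all 4 others, and the rise was 3.08 ± 0.46 on the log2 scale, or 8.46-fold (edgeR adjusted p = 0.00131). Its reads were few, between 10 and 179 per library over the whole series. Trim25, the ubiquitin ligase that activates the RNA sensor RIG-I, had 112.0 and 115.3 CPM in PEP+/+ IgE DEX, 54.3 and 86.0 in PEP+/+ IgE DNP DEX, 144.4 and 131.3 in PEP-/- IgE DEX, and 82.4 and 82.7 in PEP-/- IgE DNP DEX. It fell by 0.72 ± 0.16 (log2, edgeR adjusted p = 0.0119).

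Usp18 fell by 0.83 ± 0.17 (log2, edgeR adjusted p = 0.0102), from 8.21 to 10.9 CPM in the IgE DEX samples to 4.56 to 6.47 CPM in the IgE DNP DEX samples. Parp14 fell by 0.77 ± 0.16 (edgeR adjusted p = 0.00805), to 12.8 to 20.5 CPM from 24.8 to 36.6 CPM. Ifnar1 rose by 0.51 ± 0.14 (edgeR adjusted p = 0.0366). In all 5 of these members the groups did not overlap, but the share of all genes with groups apart was not counted, so nothing is read from this. Ifi27l2a differed by 0.47 ± 0.30 (edgeR adjusted p = 0.367), higher in 3 of 4 same-numbered pairs.

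With the replicate block, 7 members were called higher (20%, against 18.4% of all genes) and 10 lower (28.6%, against 19.2%). Irf1, which was not called without the block (-0.34 ± 0.13, edgeR adjusted p = 0.118), was among those lower with it (-0.34 ± 0.11, edgeR adjusted p = 0.0257). Trim25 was not called without PEP-/- IgE DNP DEX replicate 2 (adjusted p = 0.0519). Ifnar1 was not called without any 1 of 8 libraries (adjusted p 0.0534 to 0.153), namely the 6 PEP-/- libraries of IgE, IgE DEX and IgE DNP DEX and replicate 2 of PEP+/+ IgE DEX and PEP+/+ IgE DNP DEX.

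**Figure D3:**
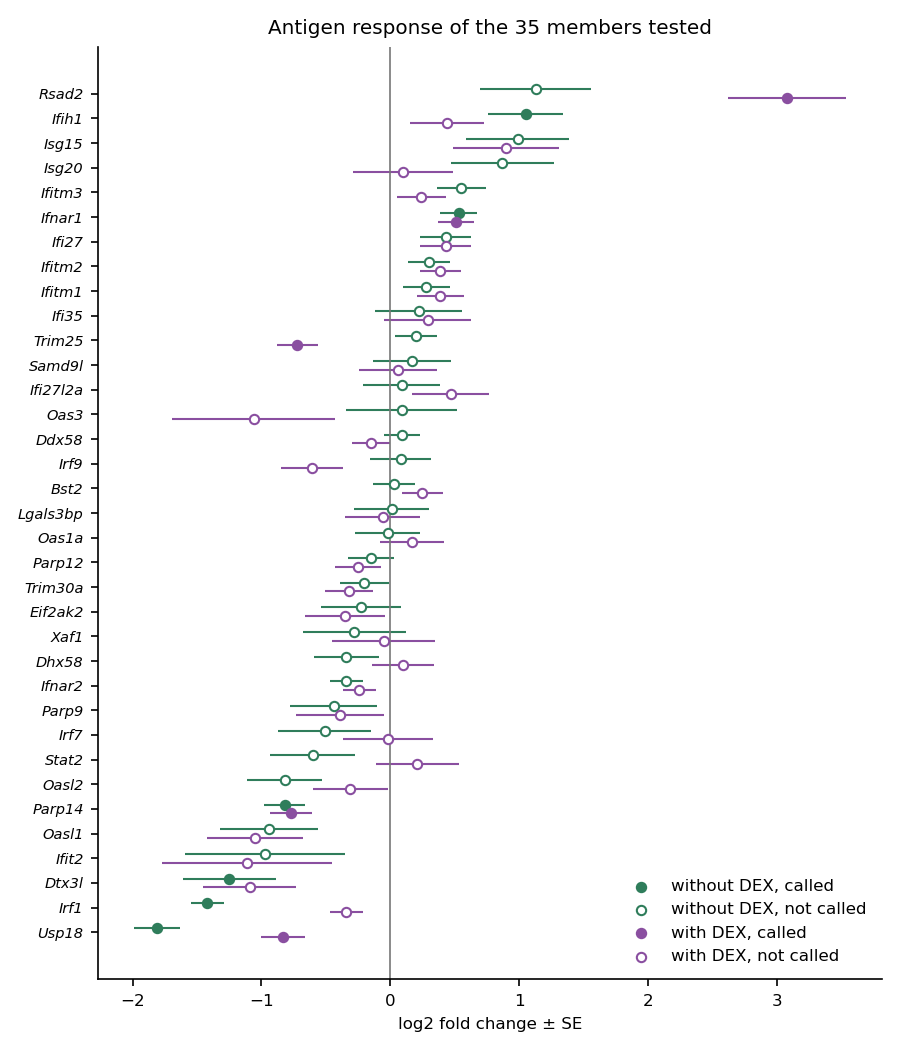
Log2 fold change with antigen for each of the 35 members tested, without DEX (green) and with DEX (purple), with bars of 1 SE and filled points where the adjusted p was under 0.05. Usp18 lies lowest without DEX at -1.81 and Rsad2 highest with DEX at 3.08.

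The next comparison asked what DEX did to the members in sensitized cells, as IgE DEX against IgE (4 samples against 4). The membrane proteins Ifitm1 and Ifitm2 fell, as did Usp18, Irf1 and the oligoadenylate synthetase Oas3, and only Trim25 was called higher. Of 35 members 1 was higher (2.86%, against 5.4% of all genes) and 5 were lower (14.3%, against 3.98%). The median log2 fold change was -0.24 over the members and 0.00 over all genes, and 22 of the 35 had a negative value.

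Ifitm1 had 3011 and 3891 CPM in PEP+/+ IgE, 1229 and 1697 in PEP+/+ IgE DEX, 3704 and 4253 in PEP-/- IgE, and 1867 and 1989 in PEP-/- IgE DEX. The groups did not overlap in either genotype, and Ifitm1 fell by 1.14 ± 0.18 (log2, edgeR adjusted p = 0.00193). Ifitm2, at chr7:140954837-140955987, had 545.3 to 743.6 CPM in the IgE samples against 352.9 to 412.3 CPM in the IgE DEX samples and fell by 0.77 ± 0.16 (edgeR adjusted p = 0.00986). Ifitm3 was not called, and the Ifitm genes are close copies of each other, so reads shared between them were not counted on any gene.

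Trim25 had 33.9 and 36.2 CPM in PEP+/+ IgE, 112.0 and 115.3 in PEP+/+ IgE DEX, 43.2 and 39.2 in PEP-/- IgE, and 144.4 and 131.3 in PEP-/- IgE DEX. It rose by 1.72 ± 0.16 on the log2 scale, or 3.29-fold (edgeR adjusted p = 4.73e-05), and each DEX sample lay above each sample without DEX. Oas3 was near the limit of detection, with 1.10 and 1.13 CPM in PEP+/+ IgE, 0.326 and 0.252 in PEP+/+ IgE DEX, 2.19 and 1.18 in PEP-/- IgE, and 0.311 and 0.102 in PEP-/- IgE DEX. It fell by 2.38 ± 0.47 (edgeR adjusted p = 0.00816), with no library above 37 reads. No DEX sample of Oas3, with or without antigen, was above 0.476 CPM. The gene therefore passed the filter on low counts only through samples without DEX, and nothing is read from its calls as lower with DEX.

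Usp18 fell by 1.25 ± 0.17 (log2, edgeR adjusted p = 7.44e-04), from 18.4 to 26.5 CPM to 8.21 to 10.9 CPM, and Irf1 by 0.67 ± 0.13 (edgeR adjusted p = 0.00673), from 30.4 to 44.9 CPM to 22.5 to 26.2 CPM. Ifi27l2a had 8.74 and 11.02 CPM in PEP+/+ IgE, 3.52 and 6.52 in PEP+/+ IgE DEX, 21.6 and 32.1 in PEP-/- IgE, and 12.1 and 19.8 in PEP-/- IgE DEX. It was lower with DEX in all 4 same-numbered pairs, by -0.86 ± 0.30 without the block (edgeR adjusted p = 0.114) and by -0.88 ± 0.20 with it (edgeR adjusted p = 0.00411). Without the filter on low counts it was also called with no block (edgeR adjusted p = 0.0119).

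With the block, 4 members were higher (11.4%, against 12.9% of all genes) and 10 lower (28.6%, against 13.8%). The members added as lower were Ifi27l2a, Rsad2, Xaf1, Eif2ak2 and Ddx58, and those added as higher were Ifi35, Isg20 and Lgals3bp. The sum of the basophil markers, which was mostly Cd200r3, was lower with DEX. The 3 of them summed to 538.9 to 882.4 CPM without DEX and to 228.4 to 478.7 CPM with it, none was at 0, and of the 3 only Cd200r3 was called (-1.12 ± 0.13, edgeR adjusted p = 1.88e-04). The 4 dendritic cell markers summed to 4.92 to 19.2 CPM without DEX and 1.17 to 7.56 CPM with it (Cd209a at 0 in every sample), and the 4 erythroid markers to 0.220 to 1.08 CPM and 0.915 to 6.51 CPM (none at 0). The part of these markers in the members' differences was not tested.

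In activated cells DEX was compared as IgE DNP DEX against IgE DNP (4 samples against 4). Ifitm1, Ifitm2 and Oas3 fell and Trim25 rose in these cells as well, and the RNA sensor Ddx58 fell. Of 35 members 1 was higher (2.86%, against 5.67% of all genes) and 4 were lower (11.4%, against 4.99%), with a median log2 fold change of -0.06 over the members and -0.01 over all genes. The 2 DEX comparisons share no sample, but each shares samples with both antigen comparisons.

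Ifitm1 had 3183 and 4958 CPM in PEP+/+ IgE DNP, 2029 and 2096 in PEP+/+ IgE DNP DEX, 4747 and 5145 in PEP-/- IgE DNP, and 2107 and 2576 in PEP-/- IgE DNP DEX, and fell by 1.03 ± 0.18 (log2, edgeR adjusted p = 0.00373). Ifitm2 fell by 0.68 ± 0.16 (edgeR adjusted p = 0.0188), from 628.9 to 955.6 CPM to 486.3 to 546.0 CPM. Oas3 fell by 3.53 ± 0.58 (edgeR adjusted p = 0.00251), from 0.788 to 3.04 CPM to 0 to 0.476 CPM, and 1 of its libraries, PEP+/+ IgE DNP DEX replicate 1, held no read. As stated for sensitized cells, Oas3 passed the filter only through samples without DEX, so nothing is read from this call.

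Trim25 rose by 0.81 ± 0.16 (log2, edgeR adjusted p = 0.00740), from 33.9 to 47.8 CPM to 54.3 to 86.0 CPM. Ddx58, the gene of the RNA sensor RIG-I that TRIM25 activates, had 33.7 and 29.5 CPM in PEP+/+ IgE DNP, 18.4 and 26.5 in PEP+/+ IgE DNP DEX, 46.9 and 41.3 in PEP-/- IgE DNP, and 29.3 and 25.8 in PEP-/- IgE DNP DEX. It fell by 0.58 ± 0.15 (edgeR adjusted p = 0.0257). In all 5 called members the groups did not overlap, in Ddx58 only just, at 29.5 against 29.3 CPM. The share of all genes with groups apart was not counted, so nothing is read from this. Ifi27l2a differed by -0.48 ± 0.30 (edgeR adjusted p = 0.387), lower in 3 of 4 same-numbered pairs.

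With the block, 5 members were higher (14.3%, against 15.9% of all genes) and 9 lower (25.7%, against 17.4%), and the lower ones included 3 of the 4 tested sensors, namely Ddx58, Ifih1 and the kinase gene Eif2ak2. Ifitm2 was not called without PEP+/+ IgE DNP DEX replicate 1, either PEP-/- IgE DNP DEX library or replicate 2 of IgE DNP in either genotype (adjusted p 0.0524 to 0.0772). Ddx58 was not called without replicate 1 of PEP+/+ IgE DNP or PEP+/+ IgE DNP DEX or any 1 of the 4 PEP-/- libraries compared (adjusted p 0.0581 to 0.108).

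**Figure D4:**
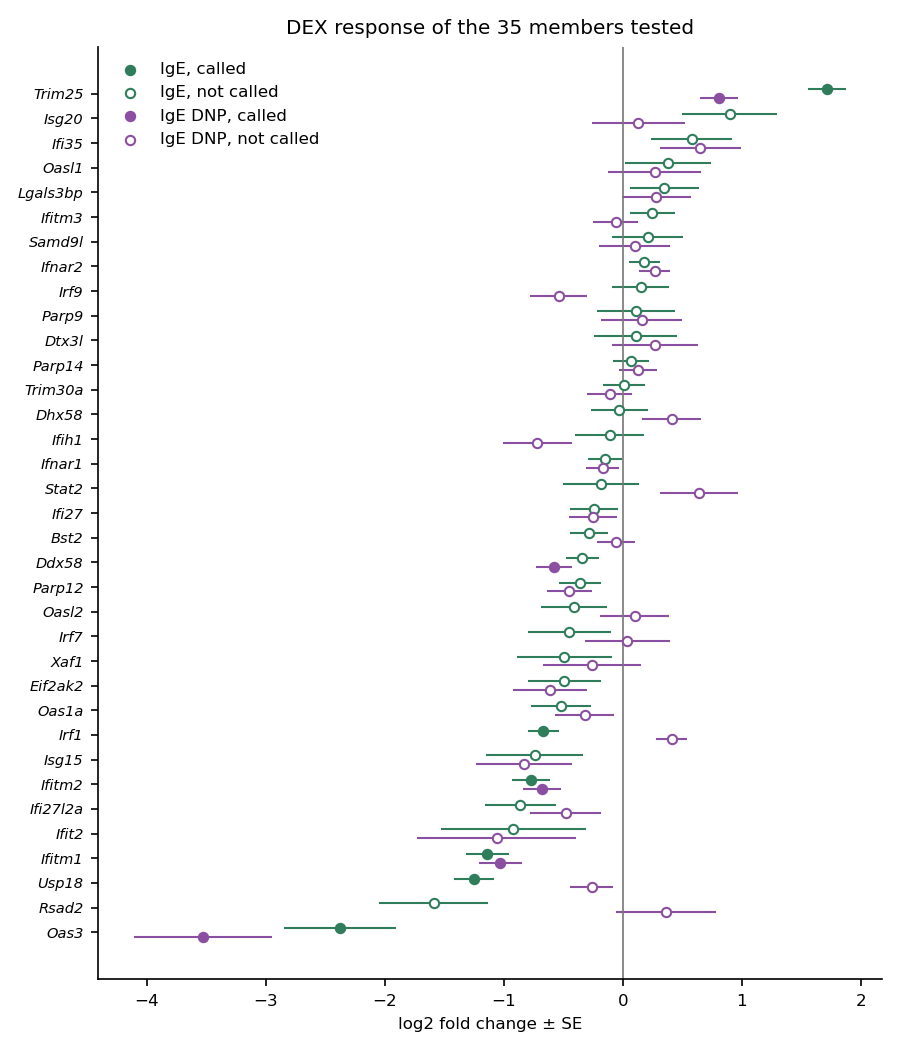
Log2 fold change with DEX for each of the 35 members tested, in IgE cells (green) and IgE DNP cells (purple), with bars of 1 SE and filled points where the adjusted p was under 0.05. Trim25 is highest, at 1.72 and 0.81, and Oas3 lowest, at -2.38 and -3.53. Oas3 passed the filter on low counts only through samples without DEX.

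In these 4 comparisons 12 of the 35 members were called at least once and 23 never without the block. How many of all genes were called at least once was not counted, so nothing is read from this count. Of the 23, Bst2, Dhx58, Irf7, Oas1a, Samd9l and Trim30a were not called with the block either. Over all 16 samples Samd9l, an inhibitor of poxvirus replication, ranged from 82.3 to 182.1 CPM, Trim30a, a TRIM family ubiquitin ligase, from 32.9 to 59.8 CPM, and Bst2 from 31.3 to 63.01 CPM. Dhx58, the RIG-I relative LGP2, had 1.97 to 3.90 CPM and the oligoadenylate synthetase gene Oas1a had 3.45 to 9.93 CPM.

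Isg15, the ubiquitin-like modifier that USP18 removes, was low throughout, with 0.521 to 6.33 CPM and 8 to 115 reads per library. Isg20, an RNA exonuclease, had 0.882 to 5.56 CPM. Relative to exon length the means were 3.84 CPM per kilobase for Usp18, 2.99 for Isg15 and 1.53 for Isg20, with overlapping ranges. Among the factors that carry the receptor's signal, Stat2 had 22.3 to 95.2 CPM and Irf9 23.9 to 52.3 CPM. The kinase gene Eif2ak2, whose product PKR stops translation on double-stranded RNA, had 17.3 to 49.7 CPM. The ADP-ribosyltransferase genes Parp9 and Parp12 had 14.7 to 48.5 CPM and 9.31 to 19.1 CPM. Xaf1, a pro-apoptotic gene, had 1.89 to 6.38 CPM, Lgals3bp 84.5 to 234.8 CPM and Ifi35 14.02 to 43.5 CPM.

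Whether DEX changed the antigen response was tested as an interaction. Irf1 was the only member called, 1 of 35 (2.86%, against 0.331% of all genes in either direction). With antigen alone its mean went from 34.3 to 13.5 CPM in PEP+/+ BMMCs, and in PEP-/- BMMCs it went from 43.1 to 15.2 CPM. Under DEX the means went from 22.7 to 20.6 CPM and from 25.8 to 17.8 CPM, respectively. The difference between the responses was 1.08 ± 0.18 (log2, edgeR adjusted p = 0.0379). This call ended without any 1 of 15 of the 16 libraries, all but PEP+/+ IgE replicate 2, with adjusted p between 0.0506 and 0.151 and values between 0.99 and 1.18, and without the filter on low counts (edgeR adjusted p = 0.141).

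With the replicate block 4 members were called in this interaction (1.57% of all genes). Irf1, Rsad2 at 1.97 ± 0.30 (edgeR adjusted p = 0.00239) and Usp18 at 0.98 ± 0.19 (edgeR adjusted p = 0.0172) were higher and Trim25 at -0.91 ± 0.18 (edgeR adjusted p = 0.0172) was lower. Ifi27l2a differed by 0.38 ± 0.42 without the block (edgeR adjusted p = 1.00).

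Whether the genotype changed the responses was tested in the same way, and edgeR called 0 members and 0 genes (0%) for the antigen response and 0 members and 0 genes (0%) for the DEX response, with and without the block. Such counts of 0 do not show that the genotypes responded alike. At an unadjusted p under 0.05 the block gave 260 and 644 genes, of which 1 and 3 were members. Without the block there were 53 and 113 genes, of which 1 and 0 were members, and DESeq2 called 0 genes in either. The members with the smallest p were Oas3 (1.94 ± 0.76, edgeR adjusted p = 1.00), Irf1 (-0.27 ± 0.18) and Usp18 (-0.29 ± 0.24) for antigen, and Oasl2 (-0.83 ± 0.41, edgeR adjusted p = 1.00), Usp18 (0.44 ± 0.24) and Isg20 (-0.83 ± 0.55) for DEX. Ifi27l2a differed between genotypes by -0.06 ± 0.42 in its antigen response and by -0.16 ± 0.43 in its DEX response (log2).

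The genotype difference itself chose the list, so its values are a description. Averaged over the 4 treatments, the members with the highest values in PEP-/- BMMCs were Ifi27l2a at 1.52 ± 0.22 (log2, SE), Irf7 at 1.34 ± 0.26 and Oasl1 at 1.15 ± 0.27, followed by Oasl2 at 1.12 ± 0.20 and Oas3 at 1.09 ± 0.39. The lowest were Bst2 at -0.36 ± 0.11, Isg20 at -0.32 ± 0.28 and Ifi35 at -0.31 ± 0.24. The values of 31 of 35 members were above 0, with a median of 0.24, against 54.0% of all genes and a median of 0.02.

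Ifi27l2a (ENSMUSG00000079017) lies on the minus strand at chr12:103442167-103443680. After IgE alone it had 8.74 and 11.02 CPM in PEP+/+ and 21.6 and 32.1 CPM in PEP-/- BMMCs, and after IgE DNP 7.09 and 11.9 CPM against 28.9 and 34.8 CPM. After IgE DEX it had 3.52 and 6.52 CPM against 12.1 and 19.8 CPM, and after IgE DNP DEX 10.3 and 6.18 CPM against 13.8 and 24.3 CPM. The lowest PEP-/- sample, at 12.1 CPM, lay just above the highest PEP+/+ sample, at 11.9 CPM, so the genotypes did not overlap over the whole series. Its neighbour Ifi27 differed by 0.20 ± 0.14 and its genotypes overlapped. Their paralog Ifi27l2b, named after its values were seen, had at most 31 reads in a library and 0 to 1.74 CPM.

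Irf7 had 1.25 and 1.56 CPM in PEP+/+ IgE against 3.37 and 5.19 in PEP-/- IgE, 0.473 and 1.46 against 2.87 and 3.30 after IgE DNP, 0.847 and 1.72 against 2.23 and 2.75 after IgE DEX, and 1.04 and 1.31 against 2.97 and 2.28 after IgE DNP DEX. For Irf7, as for Ifi27l2a, the 8 PEP-/- samples all lay above the 8 PEP+/+ samples. How many of all genes are separated in this way was not counted, so nothing is read from it. Irf7 overlaps Phrf1 on chromosome 7, so reads in the overlap may have been left out as ambiguous or counted on the wrong gene. The Oasl genes, which encode ubiquitin-like relatives of the oligoadenylate synthetases, were near the lower limit, with 0.338 to 2.94 CPM against 1.65 to 4.05 CPM for Oasl1 and 0.450 to 1.40 CPM against 1.24 to 3.65 CPM for Oasl2.

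In pairs of the same treatment and replicate number, the PEP-/- sample was the higher one in all 8 pairs for 9 members, namely Ifi27l2a, Irf7, Oasl1, Oasl2, Rsad2, Lgals3bp, Xaf1, Parp12 and Ifitm1, beside 6.38% of all genes. It was the lower one in all 8 pairs for Bst2 alone, beside 7.67% of all genes. Counts past the edgeR threshold are no test of members chosen by this difference, and nothing is read from them. They were 3 members higher and 0 lower, beside 0.428% and 1.16% of all genes, and with the block 15 and 2, beside 7.72% and 9.64%. The 9 markers of monocytes or macrophages summed to 5.85 to 14.2 CPM in the PEP+/+ samples, with C1qa at 0 in every sample, and the sum was 10.9 to 18.1 CPM in the PEP-/- samples. Their part in the members' values was not tested. Ptpn22 lies on chromosome 3, and the only member on that chromosome was Ifi44.

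**Figure D5:**
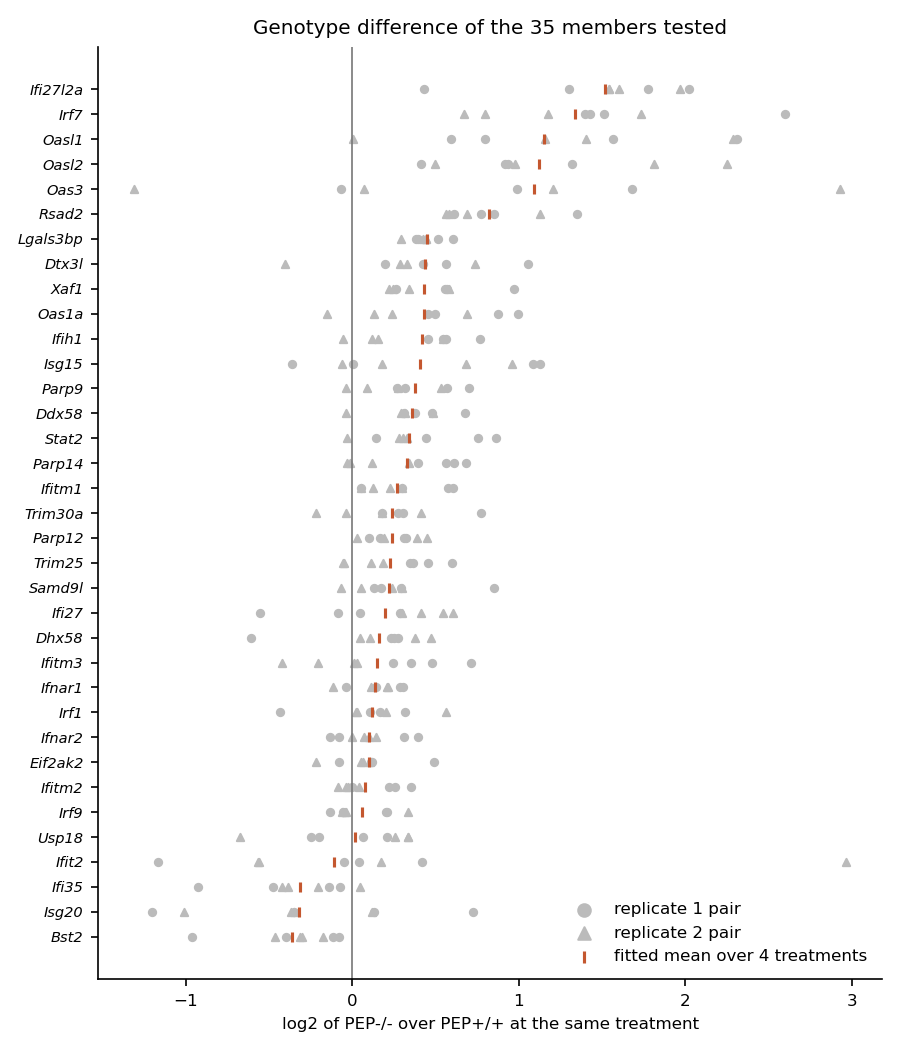
Log2 ratio of PEP-/- over PEP+/+ for each of the 35 members tested, in 4 pairs of replicate 1 (circles) and 4 of replicate 2 (triangles), with the fitted mean over treatments as a red tick, and 1 pair of Oas3 left out because its PEP+/+ sample held no read. All 8 pairs of Ifi27l2a lie above 0 around a mean of 1.52, and all 8 of Bst2 lie below 0 around -0.36.

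The replicate sets differed in 8463 of the 13305 genes tested. Between the samples numbered by a letter and those numbered by a digit, edgeR called 11 of 35 members higher (31.4%, against 31.4% of all genes) and 9 lower (25.7%, against 32.2%). Xaf1 at 0.82 ± 0.13, Ifi35 at 0.72 ± 0.10, Isg20 at 0.72 ± 0.15, Isg15 at 0.65 ± 0.19, Stat2 at 0.64 ± 0.11, Samd9l at 0.60 ± 0.10, Irf9 at 0.46 ± 0.08 and Ifitm1 at 0.28 ± 0.08 (log2) were among the members higher in the lettered set. Lgals3bp at -0.65 ± 0.06, Eif2ak2 at -0.68 ± 0.08, Parp9 at -0.73 ± 0.08, Dtx3l at -0.71 ± 0.12, Ifih1 at -0.54 ± 0.12, Rsad2 at -0.93 ± 0.14 and Ifit2 at -0.99 ± 0.27 were among those lower. Ifi27l2a was higher by 0.47 ± 0.14 (edgeR adjusted p = 0.0103). The 7 neutrophil markers summed to 1.23 to 2.37 CPM in the numbered set and to at most 0.360 CPM in the lettered set (Camp at 0 in every sample), and the 4 dendritic cell markers to 1.17 to 6.92 CPM and 5.09 to 19.2 CPM. Of the basophil markers Mcpt8 was lower in the lettered set by -1.43 ± 0.20 and Prss34 by -0.92 ± 0.29. Of the monocyte or macrophage markers Ly6c2 was lower by -3.92 ± 0.46 and Adgre1 by -1.67 ± 0.15. Cd14 of the same list was higher by 0.54 ± 0.17. Of the 11 mast cell markers 3 were called higher and 4 lower. The part of these markers in the members' differences was not tested. What the sets stand for is not given, and each condition held 1 sample of each set, so they are balanced over genotype and treatment.

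Other genes of the interferon pathway, from lists kept apart from the members, moved in both directions as well. Of 135 listed genes 130 were matched and 85 tested. With antigen 12 were higher and 12 lower, beside 9.07% and 7.58% of all genes, and with the block 17 and 26, beside 18.6% and 19.3%. For antigen under DEX 10 were higher and 12 lower, beside 7.19% and 5.42% of all genes, and with the block 15 and 26, beside 18.4% and 19.2%. Irf5, a factor of inflammatory cytokine genes, rose by 2.90 ± 0.19 (log2, edgeR adjusted p = 2.30e-06) with antigen, Socs3, an inhibitor of JAK kinases, by 3.74 ± 0.48 (edgeR adjusted p = 2.83e-04) and the interferon gamma receptor gene Ifngr2 by 1.89 ± 0.22 (edgeR adjusted p = 1.43e-04). Among genes of the interferon gamma GTPases, Gbp3 rose by 2.68 ± 0.22 (edgeR adjusted p = 1.08e-05). Trim21, the gene of an antibody receptor with ubiquitin ligase activity, fell by 1.28 ± 0.13 (edgeR adjusted p = 7.09e-05).

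With DEX, 14 of the 85 genes were higher and 3 lower in sensitized cells, beside 5.4% and 3.98% of all genes, and with the block 20 and 18, beside 12.9% and 13.8%. In activated cells 8 were higher and 3 lower, beside 5.67% and 4.99% of all genes, and with the block 21 and 18, beside 15.9% and 17.4%. Samhd1, a nucleotide hydrolase that restricts retroviruses, rose by 3.04 ± 0.12 (log2, edgeR adjusted p = 1.29e-07) in IgE cells and by 3.22 ± 0.12 (edgeR adjusted p = 2.04e-07) in IgE DNP cells. B2m, the light chain of MHC class I, rose by 1.57 ± 0.13 (edgeR adjusted p = 2.24e-05) in IgE cells, and Gbp9 fell by 2.49 ± 0.30 (edgeR adjusted p = 3.27e-04). In the antigen by DEX interaction only Gbp3 was called, at -1.74 ± 0.29 (edgeR adjusted p = 0.0346). In the genotype difference 1 of the 85 lay past the threshold, Samhd1, higher in PEP-/- BMMCs. Of all genes 0.428% were higher and 1.16% lower. With the block 17 of the 85 were higher and 4 lower, beside 7.72% and 9.64%. These counts are a description, and nothing is read from them.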

How the data were processed

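RNA-seq libraries of 16 BMMC samples were analysed. The authors aligned reads with TopHat2 to GRCm38 and counted them per gene with HTSeq, and they deposited the result as unnormalized counts, 1 whole number for each of 39179 Ensembl genes in every sample. Rows that name no gene (29.05% to 49.62% of each file's sum) were left out. They held alignments to several places and reads ambiguous between genes as well as reads outside genes. Reads that aligned to several places were not counted on any gene, so close copies such as the Ifitm, Oas, Ifit and interferon alpha genes are uncertain. The study made its libraries with a stranded kit, but the strand setting of the counting is not given in the sources used here. This leaves genes that overlap on opposite strands uncertain (Parp9 and Dtx3l, Irf7, Irf9, Irf1, Ifi35, Oasl1, Dhx58, Ifnar2). Gene names, positions and exon lengths came from GENCODE M21 (37607 identifiers named, 95.99%) and promoters from RefSeq.

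Groups came from the sample labels. The test was edgeR's quasi-likelihood test (version 4.0.16, R 4.3.3) after TMM scaling, with 1 mean per condition and 8 residual degrees of freedom. It ran on the 13305 genes that filterByExpr retained (minimum count 10), and p-values were adjusted by Benjamini-Hochberg over all of them at a threshold of 0.05. The common biological coefficient of variation was 0.312. Alternatives were DESeq2 1.42.0, its size factors in edgeR, no filter, at least 10 counts in every sample, the compared conditions alone, each library left out, and the replicate set as a block. The set is the digit or letter of the sample titles, taken as replicate 1 and 2. The deviations of same-set samples from their condition means correlated across genes at 0.453 to 0.799 in all 28 pairs of conditions, so the sets pair the samples. The pairs with PEP+/+ IgE DNP DEX were at 0.453 to 0.554 and all others at 0.651 to 0.799. The block takes 1 set effect for all conditions, so it matches PEP+/+ IgE DNP DEX less closely. Total counts were 8612531 to 22143526 per sample (median 12814043.5). No molecular identifiers were used, and the limits given for a count of 0 (3 reads) cover counting error only. The members and all gene lists were chosen with earlier results of these data known. Fold changes are given for members past the threshold, or else for those of the smallest p, for Ifi27l2a in every comparison, for the 3 largest differences each way between genotypes, and for a few called genes of the other lists. Members added by the block, Oasl2 and Oas3 in the genotype difference, and the paralog Ifi27l2b were named after their values were seen. Some items are not reported here.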

Additional observations from a re-analysis of the deposited data

Results flagged for a closer look

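The antigen response of Irf1 differed with DEX, with an interaction of 1.08 on the log2 scale (SE 0.18, edgeR adjusted p = 0.0379). Irf1 fell with antigen in all 4 same-numbered pairs without DEX, by 1.42 ± 0.13. Under DEX it was also lower in all 4 pairs, with groups that did not overlap, by -0.34 ± 0.13 (edgeR adjusted p = 0.118, and 0.0257 with the replicate block). The call of the interaction ended without any 1 of 15 of the 16 libraries, all but PEP+/+ IgE replicate 2 (adjusted p 0.0506 to 0.151), and without the filter on low counts (0.141).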

How the results depend on the processing

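With the replicate block the members called were 18 instead of 6 for antigen, 17 instead of 5 for antigen under DEX, 14 instead of 6 for DEX in sensitized and 14 instead of 5 in activated cells, 4 instead of 1 for the interaction of antigen and DEX, and 17 instead of 3 for the genotype difference. The block raised the calls over all genes as well, for antigen from 2216 to 5042, so this growth was not particular to the members. With the conditions compared alone in the fit they were 2 for antigen under DEX and 2 for DEX in activated cells, in fits of fewer samples. DESeq2 called 2 members in the interaction of antigen and DEX and 5 in the genotype difference, where no filter gave 5 and at least 10 counts in every sample, with fewer genes tested, gave 1. The share of all genes in each of these settings other than the block is not given here, so nothing is read from their counts of members. Leaving out 1 library at a time gave 3 to 7 members for antigen (3 without PEP-/- IgE DNP replicate 1), 3 to 5 for antigen under DEX (3 without PEP-/- IgE DNP DEX replicate 2), 3 to 6 for DEX in activated cells (3 without PEP+/+ IgE DNP DEX replicate 1), 0 to 1 for the interaction of antigen and DEX, and 1 to 3 for the genotype difference (1 without PEP+/+ IgE DEX replicate 1). Ifi27l2a changed sign where it was not called. Leaving out a library moved its antigen response between -0.13 and 0.25, its genotype by antigen interaction between -0.32 and 0.17 and its genotype by DEX interaction between -0.41 and 0.10. Of the fold changes named, 278 kept their direction and their side of the threshold under the other alternatives, 12 kept their direction and lost the call, 2 gained it and 0 changed sign. Over all genes and the alternatives other than leaving out a library, calls for antigen ranged from 1655 to 5042, for antigen under DEX from 953 to 5007, for DEX in sensitized cells from 976 to 3548 and in activated cells from 805 to 4429, for the interaction of antigen and DEX from 43 to 209, and for the genotype difference from 201 to 2310, each highest with the block. Leaving out 1 library gave 12 to 27 genes instead of 44 in the interaction of antigen and DEX and 57 to 203 instead of 212 in the genotype difference. Without a filter Ifi27l2a was called for DEX in sensitized cells (-0.86, edgeR adjusted p = 0.0119), and 2 genes were called in the genotype by antigen and 18 in the genotype by DEX interaction. Members under about 1 CPM rest on few reads, and the 8 below the filter could not be tested. The cause of these shifts was not tested.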
